A study of Mus musculus with 2 samples.

Results

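The genes described here are 10 members of the blood-brain barrier set: the solute carriers Slco1a4, Slco1c1, Mfsd2a, Slc2a1 and Slc7a5, the drug efflux pumps Abcb1a and Abcg2, and the tight junction genes Cldn5, Ocln and Tjp1. They were chosen by name, with earlier results of these data known, and all 10 were found among the 55401 genes of the count tables. Their RNA was counted in single cells of C57BL/6J mouse brains at 10 weeks of age. Mice of the metastasis group received an intracranial injection of the B16/F10-BrM line, derived from the mouse melanoma line B16/F10, and the naive group is labelled as naive brains. Each group was 1 library from a pool of 3 brains, after astrocyte enrichment with anti-ACSA-2 microbeads, which bind the product of Atp1b2. The submitters exchanged the titles of the 2 libraries after deposit, and the groups here follow the present titles. Melanoma-like cells numbered 717 in the metastasis library and 19 in the naive library. With 1 library per group no test between groups was possible, and intervals cover counting error only, not the spread between animals.

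Brain endothelial cells seal the capillary wall with continuous tight junctions and carry few vesicles, so that nutrients cross mainly through dedicated carriers and many drugs are pumped back into the blood. Wnt and beta-catenin signalling in the endothelium maintains this state, and neighbouring pericytes and astrocytes contribute to it. Plvap encodes the diaphragm protein of endothelial fenestrae and caveolae, which mature brain capillaries normally lack and leaky vessels express.

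In GENCODE M21 coordinates on GRCm38, Slco1a4 (chr6:141805440-141856199, minus strand) and Slco1c1 (chr6:141524368-141570177, plus strand) lie in the organic anion transporter cluster of chromosome 6. Abcg2 (chr6:58584523-58695676, plus) lies on the same chromosome, far from that cluster. Chromosome 4 holds Mfsd2a (chr4:122946850-122961188, minus) and Slc2a1 (chr4:119108711-119137983, plus). The other members are Abcb1a (chr5:8660077-8748575, plus), Slc7a5 (chr8:121881150-121907694, minus), Cldn5 (chr16:18776847-18778262, plus), Ocln (chr13:100496507-100552718, minus) and Tjp1 (chr7:65296165-65527781, minus). Slc2a1 overlaps the antisense genes Gm12867 and Gm12868, and Slc7a5 overlaps Gm20388 on the other strand. Abcb1a overlaps Gm42684 and Gm42686, and Tjp1 overlaps Gm44792, Gm44794 and the processed pseudogene Gm44795. Mir1957a lies on the same strand as Slc2a1, within its span, and how the counting treated strand is not given in the sources used here. Abcb1a has a close paralog in Abcb1b and Slco1a4 has several in its family, so their counts are uncertain to the extent that the counting could not separate the copies.

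Because the members were lower together in endothelial-like cells of metastasis, the 250 bases before the RefSeq gene start are shown for the carriers Slco1a4, Slco1c1 and Mfsd2a and for Cldn5, the member with the highest level (RefSeq, GRCm38.p6; each 5′ to 3′ on the strand of the gene). Capitals mark every match, on either strand, to the TCF/LEF letters CTTTGA, the SOX letters ACAAT or the ETS letters CCGGAAG. These 3 families include factors that act downstream of Wnt and in endothelial cells, and none of the matches shown overlaps another. The windows are chr6:141856221-141856470 for Slco1a4 (minus), chr6:141524104-141524353 for Slco1c1 (plus), chr4:122961189-122961438 for Mfsd2a (minus) and chr16:18776597-18776846 for Cldn5 (plus).
Slco1a4: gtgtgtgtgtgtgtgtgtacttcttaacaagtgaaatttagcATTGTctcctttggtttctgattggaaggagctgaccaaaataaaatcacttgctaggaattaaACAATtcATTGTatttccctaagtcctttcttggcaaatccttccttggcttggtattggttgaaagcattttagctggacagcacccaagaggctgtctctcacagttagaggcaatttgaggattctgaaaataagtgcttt
Slco1c1: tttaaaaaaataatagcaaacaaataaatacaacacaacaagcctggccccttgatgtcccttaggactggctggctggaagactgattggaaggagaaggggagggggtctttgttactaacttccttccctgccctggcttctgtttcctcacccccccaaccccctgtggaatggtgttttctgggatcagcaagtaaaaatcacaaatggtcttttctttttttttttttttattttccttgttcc
Mfsd2a: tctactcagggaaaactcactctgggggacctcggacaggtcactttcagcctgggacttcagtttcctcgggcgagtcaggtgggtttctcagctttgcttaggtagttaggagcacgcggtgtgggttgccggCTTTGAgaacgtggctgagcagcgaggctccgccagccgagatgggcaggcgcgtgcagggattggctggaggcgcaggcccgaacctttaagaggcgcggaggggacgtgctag
Cldn5: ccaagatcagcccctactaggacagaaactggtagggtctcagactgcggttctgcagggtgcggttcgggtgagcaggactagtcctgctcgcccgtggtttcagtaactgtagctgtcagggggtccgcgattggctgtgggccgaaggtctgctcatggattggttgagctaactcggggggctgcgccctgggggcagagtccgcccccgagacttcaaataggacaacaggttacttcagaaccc
The Slco1a4 window held 3 matches to the SOX letters, the Mfsd2a window held 1 match to the TCF/LEF letters, and the Slco1c1 and Cldn5 windows held 0. Of the 9 members with a RefSeq promoter, 2 had the TCF/LEF letters (Abcb1a and Mfsd2a), 2 had the SOX letters (Slco1a4 and Abcg2) and 0 had the ETS letters. A member with several RefSeq starts was counted if any of its windows held the letters. The RefSeq start of Abcb1a lies 92986 bases before the GENCODE start given above, and that of Tjp1 lies far inside the gene, so their windows are not next to those starts. Abcg2 has further RefSeq starts far inside the gene, so it had several windows in which the letters could match. Among all 32851 promoter windows of the same length, 13.8% held the TCF/LEF letters, 27.7% the SOX letters and 6.91% the ETS letters. Slc7a5 is named only.

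After the filters 13282 cells were kept in metastasis and 13310 in naive, with median depths of 2830.5 and 2773 UMIs. Clustering without the members or the pathway lists gave 21 clusters, of which 19 were named from markers. One cluster was endothelial-like, with 215 cells in metastasis (1.62% of kept cells, exact interval 1.41% to 1.85%) and 116 in naive (0.872%, 0.721% to 1.04%). All 15 endothelial markers were detected in it in both libraries, with a summed level of 8814 CPM, that is UMIs per 1000000 UMIs of the set, in metastasis and 15060 CPM in naive, against 109 and 62.9 CPM over all other kept cells. Cdh5, the adherens junction cadherin of endothelium, was at 766 CPM in metastasis (734 to 799) and 521 CPM in naive (451 to 598). It went the other way from the summed level, which was lower in metastasis. Pecam1, the adhesion protein CD31, was at 489 CPM in metastasis (463 to 515) and 615 CPM in naive (539 to 698). The bead enrichment was not for endothelium, so these shares do not describe the vessel content of the brain. The libraries shared 49 barcodes among kept cells, of which 1 was an endothelial-like cell of metastasis and 0 were endothelial-like in naive.

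All 10 members were at least 2-fold lower in endothelial-like cells of metastasis than of naive, by 2.35-fold (Tjp1) to 11.9-fold (Slco1a4), and 0 were 2-fold higher. Among the 10114 genes with at least 20 UMIs over both libraries in these cells, 16.9% were at least 2-fold lower and 17.5% at least 2-fold higher. The median log2 ratio of the members was -2.69, against -0.02 over all genes tested. Ranked from the lowest ratio with 10 CPM added to both sides, Slco1a4 was gene 6, Slco1c1 gene 18, Abcb1a gene 28 and Cldn5 gene 48, while Abcg2 was gene 489 and Tjp1 gene 685.

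The organic anion carriers were the lowest. Slco1a4, which exchanges bile acids, steroid conjugates and drugs, was at 164 CPM (462 UMIs) in metastasis and 1954 CPM (750 UMIs) in naive, which is 11.9-fold lower in metastasis (counting interval 10.6 to 13.4). Slco1c1, the thyroxine carrier of the rodent barrier, was at 133 CPM in metastasis against 1253 CPM in naive, 9.46-fold lower (8.24 to 10.9). Mfsd2a, which takes up lysophosphatidylcholine carrying omega-3 fatty acids and restrains transcytosis, was at 43.0 CPM (121 UMIs) in metastasis and 310 CPM (119 UMIs) in naive, 7.21-fold lower. Metastasis was the lower library for these 3 carriers. For each of them, the counting intervals of its level in metastasis and in naive did not overlap.

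The nutrient carriers followed. Slc2a1, the glucose transporter GLUT1, was at 208 CPM in metastasis against 1310 CPM in naive, 6.30-fold lower. Slc7a5, the large neutral amino acid transporter LAT1, was at 109 CPM in metastasis against 498 CPM in naive, 4.58-fold lower. The 2 ABC pumps differed in size. Abcb1a, which encodes P-glycoprotein, was at 156 CPM in metastasis against 1308 CPM in naive, 8.38-fold lower (7.36 to 9.55). Abcg2, the breast cancer resistance protein, was at 381 CPM in metastasis against 1006 CPM in naive, 2.64-fold lower, and its interval of the log2 ratio (-1.57 to -1.23) did not reach that of Abcb1a (-3.26 to -2.88). Abcb1b, the paralog of Abcb1a, was at 17.8 CPM (50 UMIs) in metastasis and had 1 UMI in naive.

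Of the junction genes, Cldn5, the claudin that seals brain endothelium, had the highest level of all members, with 1186 CPM (3338 UMIs) in metastasis and 7854 CPM (3015 UMIs) in naive, 6.62-fold lower. Ocln, which encodes occludin, was at 35.9 CPM (101 UMIs) in metastasis and 227 CPM (87 UMIs) in naive, 6.32-fold lower. Tjp1, which encodes the scaffold ZO-1 and is expressed widely, was at 281 CPM in metastasis against 659 CPM in naive, 2.35-fold lower. Among the junction genes, the folds of Cldn5 and Ocln were thus close to each other and that of the scaffold was smaller.

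Depth and other transcripts moved with the libraries. Endothelial-like cells had a median of 5547 UMIs in metastasis and 2547.5 in naive. The 5 erythrocyte markers, mostly haemoglobin genes, summed to 1372 CPM in metastasis against 15935 CPM in naive (0 of 5 at 0 in either). The 10 choroid plexus markers, chiefly Ttr, the main free transcript, summed to 1816 and 11439 CPM in that order, and the 13 mural markers to 1908 and 3668 CPM (0 at 0 in either library for both lists). The 10 melanoma markers summed to 161 CPM in metastasis (0 at 0) and 28.7 CPM in naive (6 at 0), against 7187 and 523 CPM in free RNA. The part of these transcripts in the result was not tested. Without mitochondrial, ribosomal and haemoglobin genes in the total, and with free RNA subtracted, the count stayed at 10 of 10. With each cell weighted equally, which keeps the deepest cells from setting the sum, the median log2 ratio of the members was -1.67 and 9 of 10 were at least 2-fold lower, all but Tjp1 (log2 ratio -0.66).

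**Figure D1:**
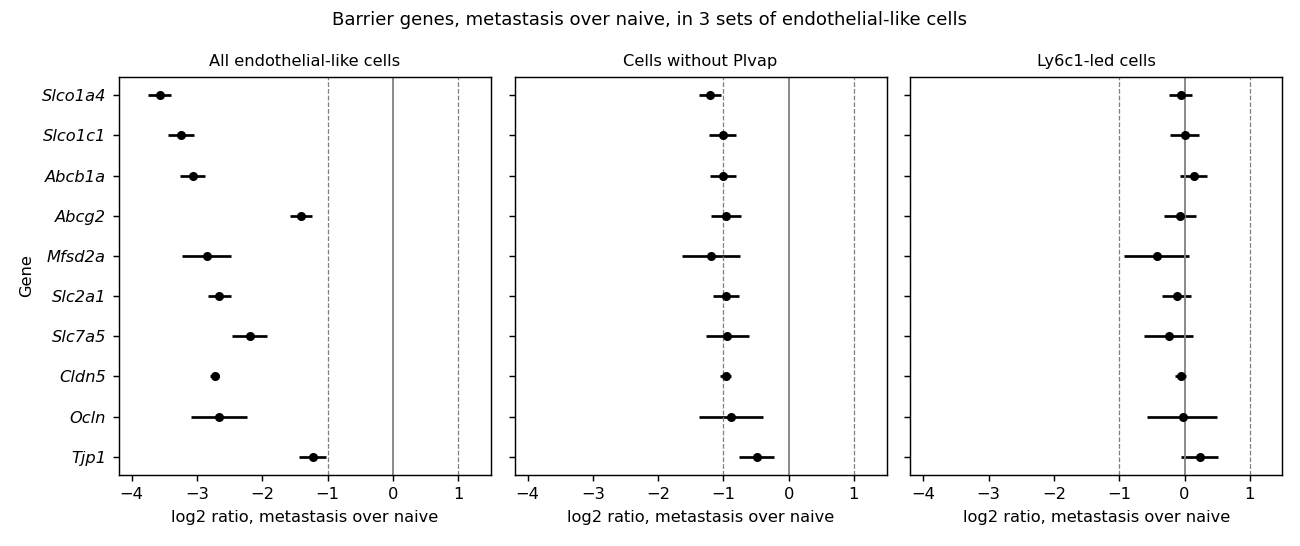
Log2 ratio of each barrier gene, metastasis over naive, in all endothelial-like cells (left), in those without a Plvap UMI (middle) and in the Ly6c1-led cells (right); points are ratios of summed CPM, bars are exact counting intervals at 95%, and dashed lines mark 2-fold. The 10 genes lie from -3.57 to -1.23 on the left, from -1.20 to -0.49 in the middle and from -0.42 to 0.23 on the right.

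Plvap separated the endothelial-like cells of metastasis. At least 1 Plvap UMI was found in 113 of 215 cells in metastasis and in 0 of 116 in naive, and summed Plvap was at 465 CPM (1309 UMIs) in metastasis. Cells with Plvap were deeper, with a median of 14248 UMIs against 2410 UMIs without it, so a shallow cell can lack a Plvap UMI and still express the gene: after thinning each cell to 1000 UMIs, 57 of the 113 cells still had one. The cells with Plvap held 2309019 of the 2814619 endothelial-like UMIs of metastasis and therefore weigh most in its sums. Their erythrocyte markers summed to 463 CPM with Plvap and 5522 CPM without, their oligodendrocyte markers to 753 and 2609 CPM and their choroid plexus markers to 1259 and 4357 CPM, and the part of these transcripts was not tested.

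Within metastasis 8 of 10 members were at least 2-fold lower in cells with Plvap than without, against 11.5% of 9620 genes, and 0 were higher, against 7.07%. Slco1a4 was at 14.3 CPM (33 UMIs) with Plvap and 848 CPM (429 UMIs) without, 59.4-fold lower, and its level with Plvap lay near the free RNA level of 11.7 CPM. That free RNA level is itself uncertain, since it rests on few of the 256869 free RNA UMIs of metastasis. Slco1c1 was at 25.6 CPM with Plvap and 621 CPM without, 24.3-fold lower, and free RNA held it at 97.3 CPM. Abcb1a was 13.7-fold lower with Plvap, at 47.6 CPM against 651 CPM without. At equal depth these 3 genes were rarely detected in cells with Plvap: 2, 0 and 4 of the 113 cells had a UMI of Slco1a4, Slco1c1 and Abcb1a after thinning, against 48, 39 and 43 of the 102 cells without Plvap. Before thinning, when cells with Plvap were deeper, Abcb1a had a UMI in 50 of the 113 and in 60 of the 102.

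The folds of the other members were smaller. Cldn5 was at 565 CPM in cells with Plvap and 4021 CPM in those without, 7.11-fold lower, and it was the member with the highest level in both sets. Slc2a1 was at 106 CPM with Plvap and 672 CPM without, while free RNA held it at 105 CPM. Ocln (16.9 and 123 CPM), Mfsd2a (22.5 and 136 CPM) and Slc7a5 (75.8 and 259 CPM), each with Plvap first, were 7.26-, 6.06- and 3.42-fold lower. Abcg2 was at 350 CPM with Plvap and 518 CPM without, a log2 ratio of -0.56 (-0.77 to -0.36), and Tjp1 was at 240 and 469 CPM in that order, a log2 ratio of -0.97 (-1.19 to -0.74). Both stayed within 2-fold, and with Plvap read from thinned cells (57 cells with it and 158 without) the log2 ratio of Abcg2 was 0.03 (-0.16 to 0.22). Under the alternatives that of Slco1a4 lay between -6.76 and -4.64.

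Cells without Plvap in metastasis were lower than naive cells, by a smaller margin. Of the 10 members, 4 were at least 2-fold lower (Slco1a4, Slco1c1, Abcb1a and Mfsd2a), against 7.06% of 6759 genes, and 0 were higher, against 9.41%. The other 6 lay between 1.41- and 1.95-fold lower. The log2 ratios ran from -1.20 to -0.49. Over the processing alternatives the count moved between 0 and 10, and the ratios moved too, that of Slco1a4 between -3.02 and -0.14 and that of Tjp1 between -1.08 and 0.16. Set against the naive cells, those with Plvap had all 10 members at least 2-fold lower, from 2.75-fold (Tjp1) to 137-fold (Slco1a4), against 19.4% of 9569 genes. The comparisons with naive share its 116 cells and are not independent.

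Clustering at Leiden resolution 2, again without the members and the pathway lists, divided the endothelial-like cells along another line than Plvap. The sub-clusters were 2 in number. One was led by Ly6c1, Slco1a4 and Cxcl12 and held 57 cells of metastasis and all 116 naive cells, and the other was led by Igfbp3, Cd93 and Igfbp7 and held 158 cells of metastasis and 0 of naive. All 113 cells with Plvap were Igfbp3-led, as were 45 of the 102 without it. Igfbp3, a secreted binding protein for insulin-like growth factors, was at 2760 CPM in Igfbp3-led cells and 41.7 CPM in Ly6c1-led cells of metastasis. Since the Igfbp3-led sub-cluster came from 1 library, a state of the cells and a property of that library cannot be told apart. The sub-clusters were found after seeing the data, so values between them are a description.

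In the Ly6c1-led cells the members differed by less than 2-fold between metastasis and naive. The 57 metastasis cells of this set are those that clustered with all 116 naive cells. Their likeness to naive cells, in the members and in other genes, can therefore be partly set by that choice. Of the 10 members 0 were 2-fold lower and 0 were 2-fold higher, against 3.45% and 3.12% of 5355 genes, and the interval of each log2 ratio included 0. Cldn5 was at 7535 CPM (1628 UMIs) in metastasis and 7854 CPM (3015 UMIs) in naive, which gives a log2 ratio of -0.06 (-0.15 to 0.03). Slco1a4 was at 1874 CPM in metastasis against 1954 CPM in naive, and Slco1c1 at 1254 and 1253 CPM in that order. The pumps were likewise within counting error of the naive level, with Abcb1a at 1444 CPM in metastasis against 1308 CPM in naive and Abcg2 at 958 and 1006 CPM. The background was unequal: the fraction of free RNA, estimated from markers of other classes, was 0.301 in these cells of metastasis and 0.113 in naive. With free RNA subtracted, the number of members 2-fold lower was again 0.

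Slc2a1 was at 1203 CPM in Ly6c1-led cells of metastasis and 1310 CPM in naive ones, Slc7a5 at 421 and 498 CPM, and Ocln at 222 and 227 CPM. The largest differences were those of Mfsd2a, at 231 CPM in metastasis against 310 CPM in naive with a log2 ratio of -0.42 (-0.93 to 0.07), and of Tjp1, at 773 and 659 CPM with a log2 ratio of 0.23 (-0.06 to 0.52). The interval of Ocln ran from -0.57 to 0.50, and the lower bound of Mfsd2a was the one nearest to a 2-fold difference. The erythrocyte markers, at 12880 CPM in these cells of metastasis and 15935 CPM in naive, were also closer to the naive level than those of all endothelial-like cells of metastasis. Taking cells with neither a Plvap nor an Igfbp3 UMI in place of the sub-cluster gave 62 cells in metastasis and 110 in naive, again with 0 members 2-fold lower and a median log2 ratio of -0.17. This choice likewise leaves out metastasis cells unlike naive ones in Plvap or Igfbp3.

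**Figure D2:**
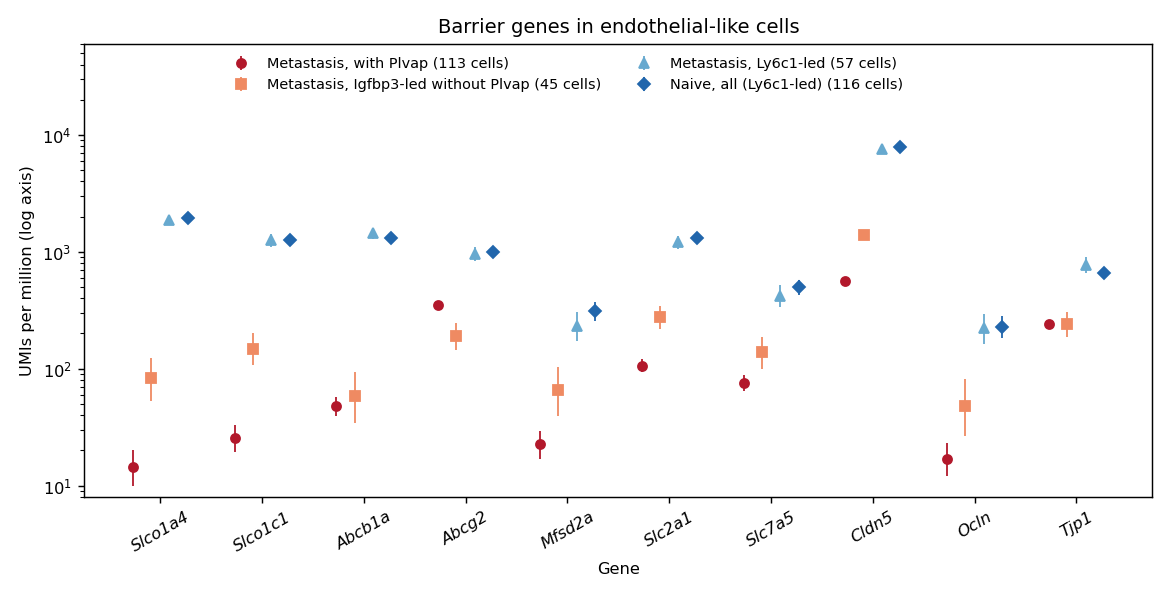
Level of each barrier gene in CPM on a log axis, in endothelial-like cells of metastasis with Plvap, Igfbp3-led without Plvap and Ly6c1-led, and in naive endothelial-like cells, with exact Poisson intervals at 95%. The Ly6c1-led cells of metastasis and the naive cells sit together for all 10 genes, and both Igfbp3-led sets lie under them.

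The barrier genes were low in Igfbp3-led cells with and without a Plvap UMI. Compared with the Ly6c1-led cells of metastasis, all 10 members were at least 2-fold lower in the Igfbp3-led cells as a whole (2.88- to 85.5-fold, against 20.2% of 9620 genes) and in the 45 without Plvap (3.05- to 24.6-fold, against 18.4% of 4705 genes). Cldn5 was at 658 CPM in all Igfbp3-led cells, 1399 CPM in those without Plvap and 7535 CPM in Ly6c1-led cells. With Plvap against Igfbp3-led without Plvap, 6 of 10 members were at least 2-fold lower (against 5.52% of 9274 genes) and 0 were higher (against 7.80%), and Slco1a4 and Slco1c1 differed most, by 5.80- and 5.81-fold. Abcg2 went the other way, at 350 CPM with Plvap and 190 CPM without, a log2 ratio of 0.88 (0.49 to 1.30), and Tjp1 was at 240 and 242 CPM in that order. The 45 cells were shallow, with a median of 1819 UMIs and at most 80 UMIs of any member other than Cldn5.

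Counted per cell, barrier genes were detected together in Ly6c1-led cells and seldom in Igfbp3-led cells. After thinning to 1000 UMIs, at least 3 of the 10 members were detected in 10.6% of cells with Plvap (12 of 113; exact interval 5.61% to 17.8%) and in 17.8% of Igfbp3-led cells without it (8 of 45; 8.0% to 32.1%). The share was 98.2% in Ly6c1-led cells of metastasis (56 of 57; from 90.6%) and 94.8% in naive cells (110 of 116; 89.1% to 98.1%). A Ly6c1-led cell of metastasis held a median of 6 members and a naive cell 5, against 1 in each Igfbp3-led set. Before thinning, the medians were 5 in cells with Plvap, 2 in Igfbp3-led cells without it, and 8 in both Ly6c1-led sets. Summed over the 10 members, the median cell had 1219 CPM with Plvap, 1088 CPM among Igfbp3-led cells without it, 15702 CPM among Ly6c1-led cells of metastasis and 17013 CPM in naive. As a background, at least 3 members were found in 0.0378% of oligodendrocyte-like cells of metastasis (2 of 5296) and 0.0906% of naive ones (5 of 5516), with median depths of 2742 and 2970 UMIs. Over all other kept cells the share was 0.436% in metastasis (57 of 13067) and 0.599% in naive (79 of 13194), and it was higher in astrocyte-like cells (2.66% and 2.09%), olfactory ensheathing-like cells (2.11% and 1.29%) and unnamed cluster 2 (3.92% and 1.88%), each with metastasis first.

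**Figure D3:**
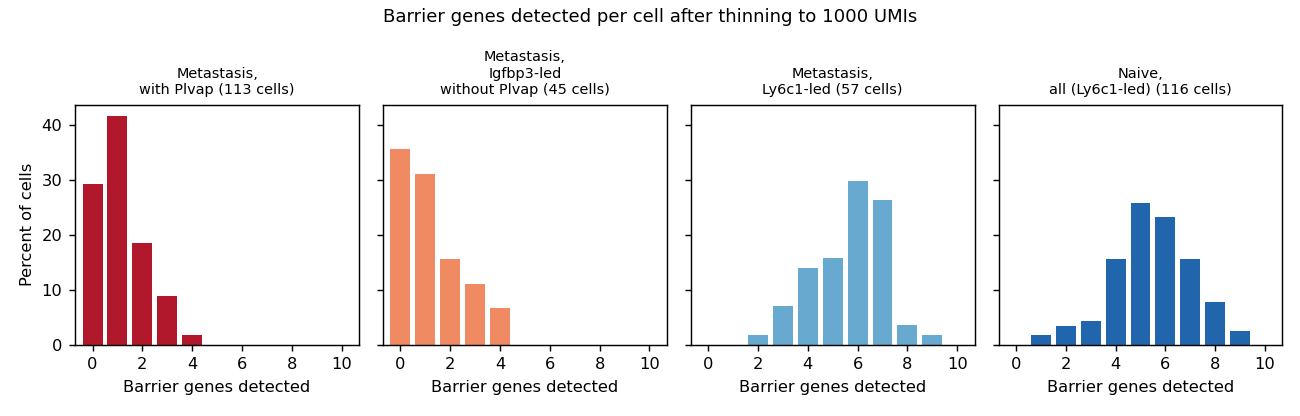
Percent of endothelial-like cells by the number of the 10 barrier genes detected after each cell was thinned to 1000 UMIs, in 4 sets. Cells with Plvap and Igfbp3-led cells without it have 0 to 4 genes, whereas Ly6c1-led cells of metastasis have 2 to 9 and naive cells 1 to 9.

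Other genes of the barrier program were read from pathway lists, given here by counts and medians beside those of all genes (16.9% lower and 17.5% higher, median -0.02). The lists were chosen with earlier results of these data known, and they include Plvap and Igfbp3. The list counts are therefore a description. Of 33 measured transporters outside the 10 members, 23 were at least 2-fold lower and 4 at least 2-fold higher in endothelial-like cells of metastasis (median log2 ratio -1.69). The taurine carrier Slc6a6 was at 175 CPM in metastasis against 2045 CPM in naive, and the organic anion transporter Slc22a8 at 26.3 and 326 CPM. Higher were the purine carrier Slc43a3 (82.1 CPM in metastasis against 5.21 CPM in naive), the nucleoside carrier Slc29a1 (159 and 26.1 CPM) and the prostaglandin carrier Slco2a1 (56.8 and 10.4 CPM). In the naive cells 3 UMIs give 7.82 CPM, so the naive levels of Slc43a3 and Slco2a1 rest on very few UMIs.

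Of 19 other junction genes, 6 were lower and 3 higher. Jam2 was at 67.1 CPM in metastasis against 326 CPM in naive, and Lsr, the angulin of tricellular junctions, at 64.3 and 289 CPM, while the gap junction gene Gja1 was at 230 CPM in metastasis against 67.7 CPM in naive. Of 11 fenestra and caveola genes, 3 were higher and 0 lower. The higher ones were Plvap (59.5-fold, with its 0 UMIs over the naive cells set to 3), Cavin3 (818 and 219 CPM) and Ehd4 (298 and 102 CPM). Among 21 measured genes of Wnt and beta-catenin signalling in vessels, 14 were lower and 1 was higher, with a median of -1.81. Foxq1 was at 69.6 CPM in metastasis against 685 CPM in naive, and the feedback genes Axin2 (9.59 and 146 CPM) and Nkd1 (19.9 and 214 CPM) were lower too, while Ccnd1, a cyclin gene, was at 1020 and 162 CPM.

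Of 20 genes of tip cells and tumour vessels, 15 were higher and 0 lower, with Igfbp3 at 2552 CPM in metastasis against 33.9 CPM in naive and Pcdh17 at 426 and 7.82 CPM. That naive level of Pcdh17 is what 3 UMIs give. Esm1, a tip cell gene, was at 189 CPM in metastasis and had 0 UMIs in naive. Capillary genes were lower in 8 of 10 and arterial genes in 9 of 11, with Spock2 at 154 CPM in metastasis against 2079 CPM in naive and Cxcl12 at 295 and 3863 CPM. The highest ratios among all genes included Plvap, Igfbp3 and the cell cycle genes Pclaf, Ube2c, Top2a and Birc5. Top2a was at 409 CPM (1152 UMIs) in metastasis and 2.61 CPM (1 UMI) in naive.

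**Figure D4:**
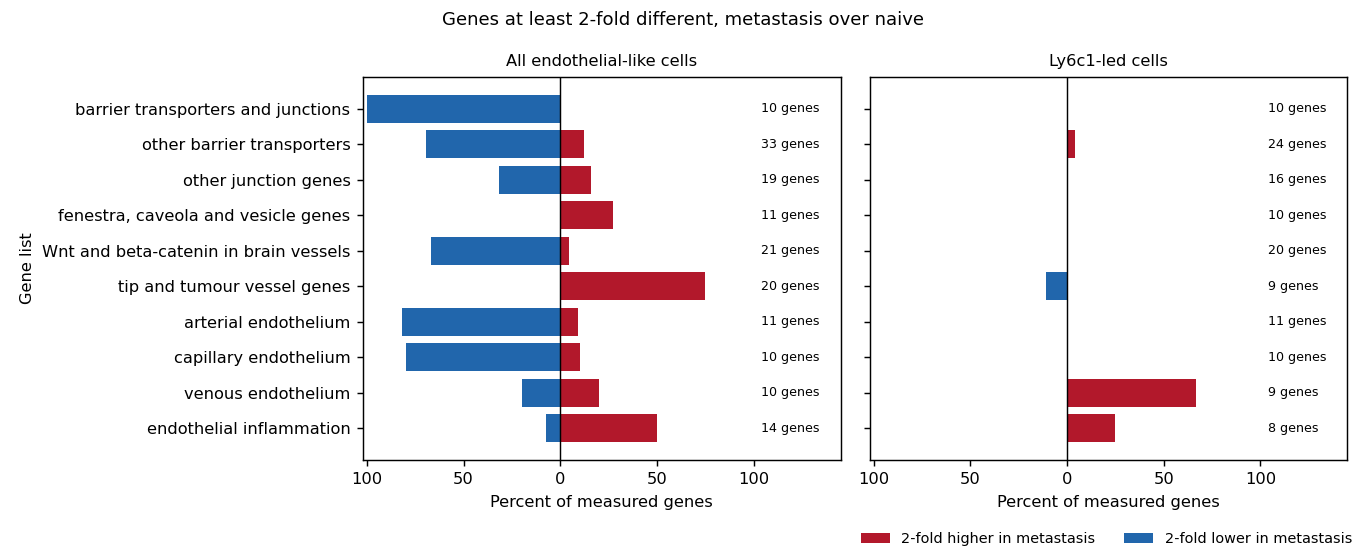
Percent of the measured genes of each list that were at least 2-fold higher or lower in metastasis than in naive, in all endothelial-like cells (left) and in the Ly6c1-led cells (right); numbers at the right are genes measured. In all cells 23 of 33 other transporters and 14 of 21 Wnt genes are lower, and in Ly6c1-led cells 0 of 24 and 0 of 20 are.

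In Ly6c1-led cells most of these lists stayed within 2-fold of naive. Of 24 other transporters 0 were lower and 1 was higher (Slc52a3, 13 UMIs in metastasis and 11 in naive), and all 16 junction genes, 20 Wnt genes, 11 arterial and 10 capillary genes measured stayed within 2-fold. The venous list differed, with 6 of 9 genes at least 2-fold higher (median log2 ratio 1.26, against 0.005 over all genes, of which 3.12% were higher). Vwf, the von Willebrand factor, was at 444 CPM (96 UMIs) in metastasis and 130 CPM (50 UMIs) in naive, which gives a log2 ratio of 1.77 (1.26 to 2.29). Il1r1 was at 106 CPM in metastasis against 23.4 CPM in naive. The adhesion gene Vcam1, also on the inflammation list, was at 125 CPM in metastasis against 52.1 CPM in naive. In the same cells the 10 macrophage and monocyte markers summed to 440 CPM in metastasis (3 at 0) and 36.5 CPM in naive (6 at 0), against 3465 and 88.4 CPM in free RNA, and the 10 oligodendrocyte markers to 3041 and 1201 CPM (0 at 0 in either). Their part in these values was not tested.

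Outside endothelium the members were spread over several classes. Over all other kept cells, endothelial-like cells were at least 2-fold higher in 9 of 10 members in metastasis (against 17.3% of 19802 genes, with 27.0% lower) and in 10 of 10 in naive (against 38.5% of 19042 genes). The exception in metastasis was Ocln, at 35.9 CPM in endothelial-like and 19.6 CPM in other cells. For the shares over all genes, a gene with 0 endothelial-like UMIs was set to 3 UMIs. That is 7.82 CPM in naive and 1.07 CPM in metastasis, so a gene rare in other cells can be called higher without an endothelial-like UMI. The shares of 38.5% and 17.3% can thus overstate the genes higher in endothelium. In naive the folds ran from 5.22 for Ocln to 125 for Cldn5, with Abcb1a at 112 and Slco1a4 at 109. Slc7a5 was at 498 CPM in endothelial-like and 5.17 CPM in other naive cells, whereas Slco1c1, Slc2a1 and Ocln were also present in other classes.

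Slco1c1 was found in astrocyte-like cells, at 520 CPM in metastasis against 522 CPM in naive, and in choroid plexus epithelium-like cells, at 431 and 462 CPM. Astrocyte-like cells also had Mfsd2a, at 157 CPM in both libraries. Slc2a1 in these cells, at 119 CPM in metastasis against 131 CPM in naive, lay close to its level in free RNA. In ependymal-like cells, which line the ventricles, Slc2a1 was at 415 CPM in metastasis against 486 CPM in naive and Ocln at 114 CPM in both. Choroid plexus epithelium-like cells held Slco1a4, at 72.7 CPM in metastasis against 103 CPM in naive, which gives a log2 ratio of -0.51 (-0.71 to -0.30). Tjp1 had its highest level outside endothelium in fibroblast-like cells, at 255 CPM in metastasis against 270 CPM in naive. Free RNA held Slco1c1 at 97.3 CPM in metastasis against 276 CPM in naive and Slc2a1 at 105 and 114 CPM, so levels at or under these in other classes are read as background.

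Olfactory ensheathing-like cells, the glia of the olfactory nerve, held 3 barrier genes in 2 patterns. Cluster 9 of this class, led by Clca3a1 and Fabp7, had Cldn5 at 2139 CPM (1764 UMIs) in metastasis against 1953 CPM (2478 UMIs) in naive, and 66.0% and 60.1% of its cells had a Cldn5 UMI after thinning. Cluster 10, led by Npy and Prss56, had Cldn5 at 27.5 CPM in metastasis against 18.2 CPM in naive but Abcb1a at 137 and 156 CPM. In cluster 9 Abcb1a was at 2.43 CPM in metastasis against 3.94 CPM in naive, whereas Mfsd2a was found in both clusters (114 and 102 CPM in cluster 9, 195 and 191 CPM in cluster 10). The 15 endothelial markers summed to 82.5 CPM in cluster 9 of metastasis (3 at 0) and 48.1 CPM in naive (4 at 0), far under the level of Cldn5 there. In the metastasis library Cldn5 was thus higher in cluster 9 than in endothelial-like cells as a whole, at 1186 CPM, and lower than in the Ly6c1-led ones.

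Unnamed cluster 2, led by Ccn3, Slc47a1 and Mgp, held both ABC pumps. Abcb1a was at 290 CPM in metastasis against 325 CPM in naive and Abcg2 at 499 and 747 CPM, while Slco1a4 had 0 and 3 UMIs and Cldn5 was at 25.5 and 30.1 CPM. The 15 endothelial markers summed to 181 CPM in metastasis (6 at 0) and 213 CPM in naive (3 at 0), and the median mitochondrial share of the cluster was 8.68% and 9.38%.

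**Figure D5:**
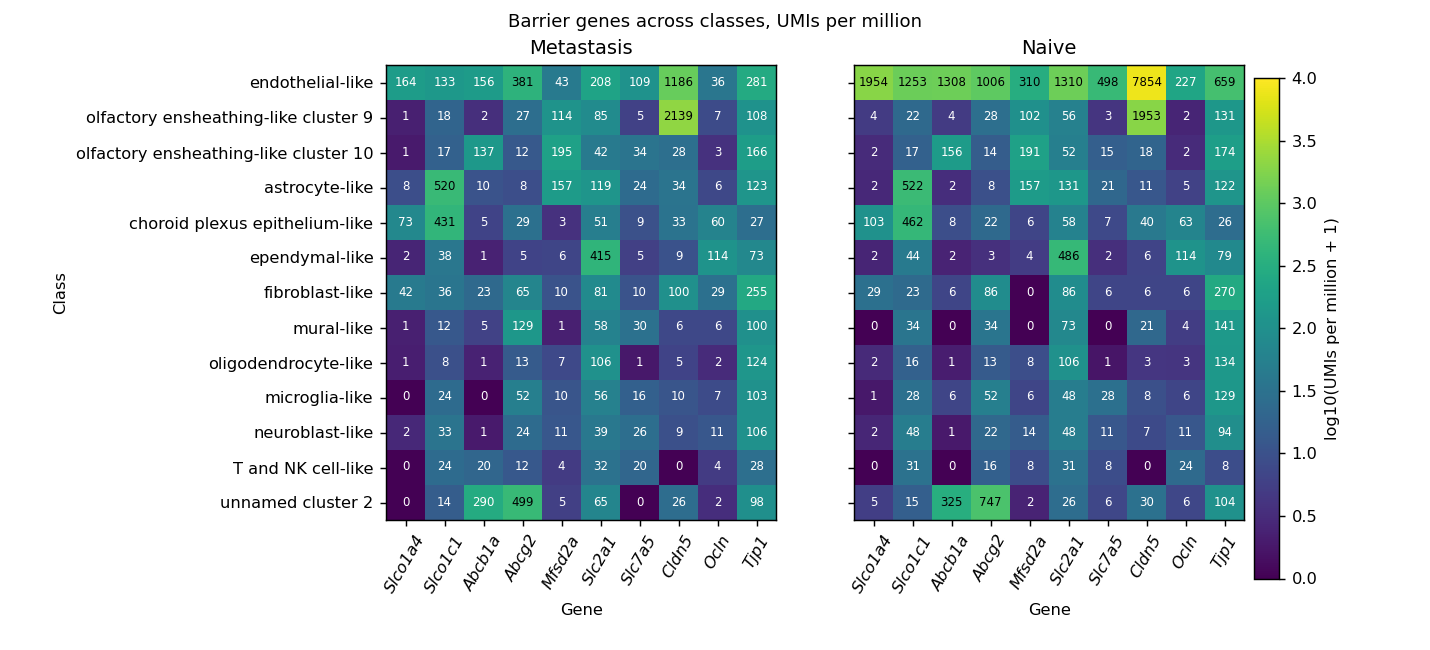
Level of each barrier gene in CPM in the classes that held 50 or more cells per library, metastasis left and naive right; colour is log10 of the level plus 1 and numbers are the rounded levels, with the 2 olfactory ensheathing-like clusters shown apart. Unnamed cluster 0 is not drawn, and the endothelial-like row holds the widest difference between the panels, with Cldn5 at 1186 in metastasis and 7854 in naive.

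Between the libraries, few members passed 2-fold in the other classes. In oligodendrocyte-like cells all 10 members had at least 20 UMIs and 0 were past 2-fold (against 1.21% of 15157 genes lower and 4.90% higher), with Slc2a1 at 106 CPM in both and Tjp1 at 124 CPM in metastasis against 134 CPM in naive. Its cluster 1 took 2004 of the 5296 metastasis cells, against 1361 of the 5516 naive cells, and there 2 of 9 measured members were 2-fold lower, against 1.01% of 12720 genes (3.1% higher): Slco1c1, at 6.48 CPM in metastasis against 13.4 CPM in naive, and Ocln, with 13 and 21 UMIs. Both levels of Slco1c1 lay under those in free RNA. In choroid plexus epithelium-like cells 1 of 10 was 2-fold lower, against 0.954% of 12364 genes (5.34% higher): Mfsd2a, with 10 and 44 UMIs. In ependymal-like cells 1 of 10 was 2-fold higher, against 3.78% of 16498 genes (1.24% lower): Abcg2, with 45 and 35 UMIs. The class sat in different clusters in the libraries, since its cluster 5, led by Ifit3 and Cd24a, held 678 cells of metastasis and 12 of naive. In its cluster 6, with 1330 cells of metastasis and 2841 of naive, Abcg2 (23 and 26 UMIs) was 2-fold higher, against 2.6% of 15637 genes, and Abcb1a (3 and 18 UMIs) was 2-fold lower, against 1.75%. In olfactory ensheathing-like cells 8 members had at least 20 UMIs and 1 was 2-fold higher, against 2.58% of 11619 genes (1.32% lower): Slc7a5, at 21.4 CPM in metastasis against 9.63 CPM in naive.

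In astrocyte-like cells 7 members had at least 20 UMIs and 1 was 2-fold higher, against 2.52% of 10596 genes (3.63% lower): Cldn5, with 21 and 24 UMIs, under the free RNA level in both libraries. Of the other members there, Slco1c1 had a log2 ratio of -0.01 (-0.19 to 0.17), Mfsd2a -0.01, Tjp1 0.01 and Slc2a1 -0.14. In mural-like cells, the pericytes and smooth muscle next to endothelium, Abcg2 was at 129 CPM (100 UMIs) in metastasis and 34.2 CPM (8 UMIs) in naive, and Slc7a5 had 23 and 0 UMIs. Here 2 of 4 measured members were higher, against 22.7% of 7062 genes. Microglia-like cells had 6 members with at least 20 UMIs, all within 2-fold, against 1.91% of 9602 genes lower and 4.72% higher. In fibroblast-like cells 1 of 4 was higher, against 8.22% of 4526 genes (2.92% lower): Cldn5, with 31 and 1 UMIs. In neuroblast-like cells 1 of 7 was higher, against 3.64% of 10848 genes (3.38% lower): Slc7a5, with 28 and 13 UMIs. In unnamed cluster 2, 1 of 5 was higher, against 4.21% of 7652 genes (3.02% lower): Slc2a1, with 28 and 17 UMIs. In unnamed cluster 0, led by Igkc and H2-Eb1, 2 of 3 were lower, against 6.81% of 7803 genes (9.56% higher): Cldn5, with 14 and 17 UMIs, and Tjp1, with 19 and 16 UMIs. T and NK cell-like cells had 0 members with at least 20 UMIs, where 3.16% of 3421 genes were lower and 10.3% higher. Melanoma-like cells of metastasis had Slc7a5 at 51.9 CPM (1109 UMIs) and Cldn5 at 3.13 CPM.

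Over 24 points of class and library, which share libraries and depth, the genes most like each member were taken by Pearson's r among 16922 genes. Abcb1a was most like Sema3g (0.97) and Cldn5 (0.94), and Cldn5 was most like Abcb1a (0.94), Sema3g (0.92) and Spock2 (0.90). Slco1a4 was most like Slc16a4 (0.94), a monocarboxylate transporter family member, Lsr (0.93) and Sema3c (0.93). Abcg2 was most like Adgrf5 (0.92) and Emcn (0.90), which mark endothelium broadly, and Slc7a5 was most like the cationic amino acid transporter Slc7a1 (0.88) and Rad54b (0.87). For the other members the nearest genes were Gm48207 (0.95) and Plcb1 (0.90) for Mfsd2a, Gm10549 (0.88) and Nxpe4 (0.88) for Slc2a1, Hook3 (0.86) and Rtl8a (0.86) for Tjp1, Paqr5 (0.91) and Pltp (0.88) for Ocln, and Csgalnact1 (0.86) and Ccdc141 (0.83) for Slco1c1. Each library gives 1 endothelial-like point, and no p is given.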

How the data were processed

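Single-cell RNA of 1 metastasis library and 1 naive library was read from deposited matrices of raw UMI counts per gene and barcode, in which the authors kept all 6794880 barcodes. Reads were processed with STARsolo against GRCm38, per the submitters' processing notes, and the version is not given in the sources used here. The libraries held 89193669 UMIs in metastasis and 69445557 in naive.

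Barcodes with at least 1000 UMIs (13937 and 14301) were kept if they had at least 500 genes and at most 20% mitochondrial UMIs. Scrublet scores above 0.25, a value set after seeing that the automatic threshold marked 0 cells in metastasis, removed 463 and 685 doublets. Counts were scaled to 10000, log-transformed and clustered with scanpy 1.11.5 (2000 variable genes, 30 components, 15 neighbours, Leiden resolution 1), leaving out the members and all genes of the pathway lists that are not cell type markers. A cluster took the name of the list with most markers in its top 10 genes, if the median log2 fold was at least 1 and at least 3 markers passed 2-fold; these limits were set after clusters were seen.

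UMIs were summed per class and library and given as CPM (UMIs per 1000000 UMIs of the set), with exact Poisson intervals, exact conditional binomial intervals for ratios and Clopper-Pearson intervals for shares, all at 95%. Ratios were called at 2-fold on the point value among genes with at least 20 UMIs over both sides. Genes at 0 were set against 3 UMIs over the set. Free RNA was read from barcodes with 10 to 100 UMIs. Intervals were tested on simulated data. Genes of a list were named if they were among the 3 highest or 3 lowest past 2-fold (10 CPM added), and the 8 highest and 8 lowest of all genes with at least 50 UMIs were named as background. The members and lists were chosen with earlier results of these data known.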

Additional observations from a re-analysis of the deposited data

How the results depend on the processing

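No paired analysis was possible because each group had 1 library and no result came from a test. Over the alternatives run, the number of members at least 2-fold lower in metastasis than in naive was 10 in all endothelial-like cells except 9 with each cell weighted equally and 9 with cells thinned to 1000 UMIs; the 160 log2 ratios of single members lay between -3.78 and -0.66. With Plvap against without, the count ran from 7 to 9 and the log2 ratios from -6.98 to 0.03, of which 1 of 180 was above 0: Abcg2 with Plvap read from thinned cells. In Ly6c1-led cells the count was 0 in the 9 alternatives run there, with log2 ratios from -0.57 to 0.57. Other cell filters, no doublet removal and other clusterings were not run for this sub-cluster. Endothelial-like against other cells gave 8 to 10 in metastasis and 10 in naive; the subtraction of free RNA was not run there.

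The count of 4 in cells without Plvap, metastasis over naive, depended on the processing. It was 9 with at least 500 UMIs per cell, 9 with at most 10% mitochondrial UMIs, 7 with cells named by their own markers and 10 with Plvap read from thinned cells. It was 2 at Leiden resolution 0.5, 2 with the members and lists among the variable genes, 2 with free RNA subtracted (barcodes of 10 to 100 or, added after seeing the data, 100 to 300 UMIs), and 2 without mitochondrial, ribosomal and haemoglobin genes in the total. It was 1 without doublet removal, 1 with thinned cells, 0 with each cell weighted equally and 0 in cells without Plvap and Igfbp3, also added after seeing the data, where the log2 ratio of Abcb1a turned to 0.079 and that of Tjp1 to 0.162 (both intervals included 0). The cause was not tested. Depth limits Mfsd2a and Ocln most, with 50 and 48 UMIs in the Ly6c1-led cells of metastasis.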
